A study of Rattus norvegicus with 20 samples.

Results

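The CCN and thrombospondin genes were followed through the whole mesenteric artery of rats with inherited or renovascular hypertension. The 8 genes, of 26243 gene names on the array, were Ccn1, Ccn2, Ccn3, Ccn4 and Ccn5 (named Cyr61, Ctgf, Nov, Wisp1 and Wisp2 on the array) and Thbs1, Thbs2 and Thbs4. They were chosen by family, with the measured difference of Ccn1 between SHRSP and untreated WKY artery already known, and found by their gene names. Each was represented by 1 probe. The values of the 8 genes in that comparison are therefore a description. Where the fit over all genes called one of them there, the call is stated and nothing is read from it. The lists of related and marker genes used below were also chosen with earlier results of these data known, and their counts are descriptions.

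CCN proteins are secreted, modular proteins that sit in the matrix and act through integrins and heparan sulphate proteoglycans rather than as structural fibres. In vessels, Ccn1 and Ccn2 are early-response genes, induced by stretch, growth factors and angiotensin II, and both are widely used as target genes of the YAP and TEAD transcription regulators. Thrombospondins are large calcium-binding matrix glycoproteins. Thbs1 and Thbs2 bind CD36 and CD47 and restrain angiogenesis, while Thbs4 and its relatives Thbs3 and Comp lack that activity and occur in muscle, tendon and cartilage.

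Total RNA from 20 samples in 5 groups of 4 was hybridised to Agilent arrays. The groups were WKY/Izm rats without operation, WKY/Izm with 2K1C (2-kidney 1-clip: 1 renal artery narrowed, the other kidney left in place), WKY/Izm with 1K1C (1-kidney 1-clip: the other kidney removed), SHR/Izm, and its stroke-prone substrain SHRSP/Izm. The labels give an age of 6 weeks and a period of 3 weeks with or without operation, and leave unclear at which end of that period the rats had this age. The controls had no sham operation, the samples are labelled as biological replicates without saying whether rats were pooled, and no blood pressure is used here. WKY is the usual normotensive comparator, but it is a separate inbred strain. A difference from SHR or SHRSP is therefore a difference between strains.

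Levels below are log2 signals relative to the 75th percentile of the same array, so that 0 is that percentile and a difference of 1 is 2-fold. That percentile lay between 574.5 and 1193 signal units, and 66.5% to 71.7% of spots were well above background. The mean level of 8 smooth muscle markers lay between 2.14 and 3.84 on 17 arrays, but at -0.45 on 1K1C replicate 2, 1.58 on SHR replicate 1 and 1.63 on 1K1C replicate 1, and results are also given without these 3. Mesothelium markers averaged -0.23 on SHR replicate 1, -1.10 on 1K1C replicate 2, and -0.47 and -1.51 on untreated WKY replicates 2 and 3, against -2.70 or less on the other arrays. The 2K1C arrays lay on 1 slide, the 1K1C and untreated WKY arrays on another, and the SHR and SHRSP arrays on the third. Only the contrasts of 1K1C with untreated WKY and of SHRSP with SHR lay within a slide, and there group and slide row cannot be told apart. In all others slide and group cannot be told apart. In whole artery, fewer cells of a type and less RNA per cell cannot be told apart.

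**Figure D1:**
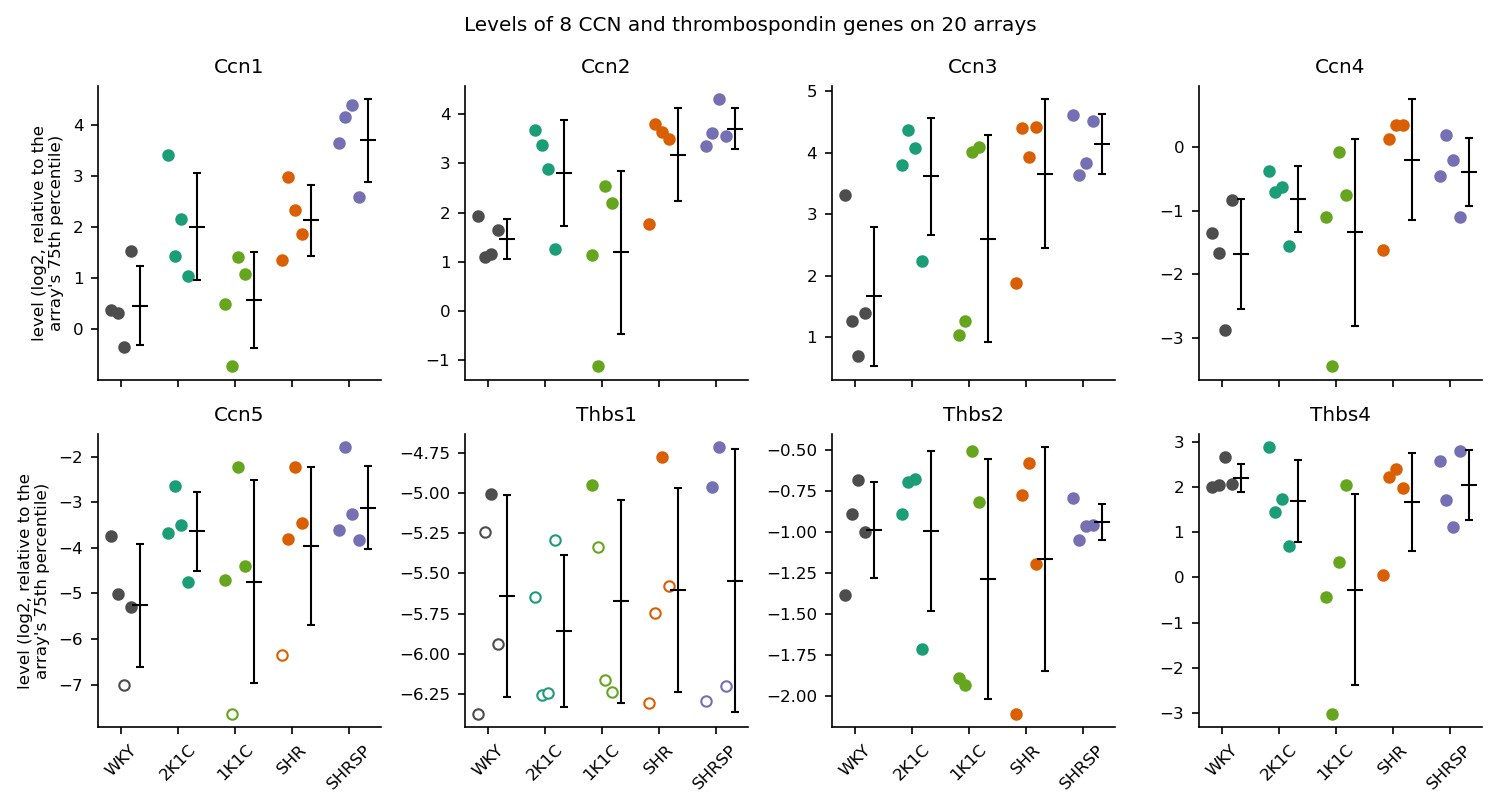
Level of each gene (log2, relative to the array's 75th percentile) on the 20 arrays, 1 point per array, with the mean and SD of 4 arrays beside each group. Open points were not well above background. Ccn1 ran from -0.72 to 4.41, while Thbs1 stayed between -6.38 and -4.72 and was mostly not well above background.

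Ccn1, the CCN member also known as Cyr61, was highest in SHRSP artery. On the 4 untreated WKY arrays its level was 0.37, 0.32, -0.35 and 1.53. On the 4 SHRSP arrays it was 3.66, 4.16, 4.41 and 2.59, so that each SHRSP array lay above each untreated WKY array. SHR artery was intermediate, with 1.35, 2.99, 2.35 and 1.87, and 3 of its 4 arrays lay above the highest untreated WKY array. The 2K1C arrays read 3.42, 1.43, 2.17 and 1.04. The 1K1C arrays read 0.49, -0.72, 1.41 and 1.10, within or below the range of untreated WKY. The renovascular models thus overlapped untreated WKY, 2K1C by 2 arrays of 4 and 1K1C by most of its range.

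By mean level, Ccn1 ran from SHRSP (3.70 ± 0.81, SD, n = 4) through SHR (2.14 ± 0.69) and 2K1C (2.02 ± 1.04) to 1K1C (0.57 ± 0.94) and untreated WKY (0.47 ± 0.78). SHR and 2K1C were closer to each other than their SDs, as were 1K1C and untreated WKY. The SHRSP mean was 9.42 times that of untreated WKY, a log2 difference of 3.24 ± 0.57 (SE). Of the 7 genes that could be tested, Ccn1 was the single one called there at an adjusted p of 0.05, in a comparison in which 2.39% of all 16424 genes were called. As these values were known when the genes were chosen, nothing is read from that count. The other comparisons with untreated WKY or with SHRSP share arrays with it.

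Against SHR, on the same slide, Ccn1 was 2.95 times higher in SHRSP, and 3 of 4 SHRSP arrays lay above the highest SHR array. The log2 difference of 1.56 ± 0.57 (SE) had an unadjusted 95% interval of 0.37 to 2.76 and did not pass in limma with Benjamini-Hochberg adjustment over all genes (adjusted p = 0.834). None of the 7 genes was called between SHRSP and SHR, where 0.359% of all genes were, and Ccn1 was the 1 member with an unadjusted p under 0.05, against 585 of all genes. Against untreated WKY, Ccn1 differed by 1.67 ± 0.57 in SHR (adjusted p = 0.163) and by 1.55 ± 0.57 in 2K1C (adjusted p = 0.152), neither of which passed in limma. In 1K1C the difference was 0.10 ± 0.57, with a 95% interval of -1.09 to 1.30.

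Ccn2, connective tissue growth factor, is the member most used as a marker of fibrotic and TGF-beta responses. Its level was 1.94, 1.11, 1.16 and 1.64 on the untreated WKY arrays and 3.34, 3.62, 4.30 and 3.55 on the SHRSP arrays. All SHRSP arrays lay above all untreated WKY arrays, a 4.73-fold difference in means. The SHR arrays read 1.77, 3.80, 3.64 and 3.48: 3 arrays at SHRSP levels, and 1, the array low in smooth muscle markers, at the level of untreated WKY. In 2K1C the values were 3.67, 3.37, 2.89 and 1.26, again 3 above the highest untreated WKY array and 1 below it. The 1K1C arrays spread most, at 1.15, -1.12, 2.54 and 2.19.

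The log2 difference of Ccn2 from untreated WKY was 1.71 ± 0.66 (SE) in SHR (limma, adjusted p = 0.236; 95% interval 0.31 to 3.11) and 1.34 ± 0.66 in 2K1C (adjusted p = 0.245; interval -0.06 to 2.73). In 1K1C it was -0.27 ± 0.66 with an interval of -1.67 to 1.13, and it turned to 0.50 without 1K1C replicate 2. None of these passed. The SHRSP and SHR means, 3.71 and 3.17, differed by 0.53 ± 0.66. Without the 3 arrays low in smooth muscle markers, a choice made after the data were seen, the SHR difference from untreated WKY was 2.18. It was called (limma, adjusted p = 0.012), as were 7.2% of all genes. SHR replicate 1, left out there, was the lowest SHR array for Ccn2, so leaving it out could only raise that difference.

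The promoters of Ccn1 and Ccn2 are shown because both genes were high in SHRSP and their levels ran together over the arrays (Pearson r = 0.87 over 20 arrays from 5 groups, 0.74 after each group's mean was subtracted). The 250 bases before each start site are from RefSeq, build GRCr8, on the minus strand of chr2:237225690-237225939 for Ccn1 and of chr1:22624615-22624864 for Ccn2. They are printed in lower case with the letters GGAATG, the core of the TEAD motif, or their complement in capitals.
Ccn1: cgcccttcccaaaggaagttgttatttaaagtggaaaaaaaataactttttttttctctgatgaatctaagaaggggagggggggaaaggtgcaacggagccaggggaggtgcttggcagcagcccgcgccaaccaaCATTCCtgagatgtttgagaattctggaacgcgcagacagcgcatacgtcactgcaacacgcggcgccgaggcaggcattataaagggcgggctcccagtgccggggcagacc
Ccn2: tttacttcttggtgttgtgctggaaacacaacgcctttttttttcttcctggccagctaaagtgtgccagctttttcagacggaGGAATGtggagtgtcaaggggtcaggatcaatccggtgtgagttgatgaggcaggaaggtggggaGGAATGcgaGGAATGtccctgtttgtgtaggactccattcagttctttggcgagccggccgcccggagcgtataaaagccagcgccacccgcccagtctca
Ccn1 held 1 such match, starting 113 bases before the start site, and Ccn2 held 3, starting 166, 101 and 92 bases before it. Both strands were searched, and the matches did not overlap those of the other motifs searched. Of 27457 rat promoters of the same length, 11.8% held GGAATG on either strand. The AP-1 motif TGANTCA, held by 6.36% of promoters, and the CArG box of serum response factor, held by 1.5%, had no match in either window. TATAAA, held by 13.1% of promoters, lay 34 bases before the start of Ccn1 and 31 bases before that of Ccn2. Among the other members, Thbs1 and Thbs4 had a promoter in the table, each with 1 GGAATG match, and Ccn3, Ccn4, Ccn5 and Thbs2 were not in it. A match is a description of letters and not a binding site.

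Ccn3 (Nov) is made by resting vascular smooth muscle and is known to restrain its growth. Its level was 3.30, 1.27, 0.69 and 1.39 in untreated WKY and 4.61, 3.63, 3.83 and 4.51 in SHRSP. The groups did not overlap, but untreated WKY replicate 1 came close. The neuron markers averaged 4.61 on that array, against 1.63 or less on the other 19, and their part in its Ccn3 level was not tested. Ccn3 read 1.87, 4.41, 3.93 and 4.41 in SHR, with the low smooth muscle array again lowest. It read 3.80, 4.36, 4.07 and 2.23 in 2K1C, and 1.03, 1.26, 4.02 and 4.08 in 1K1C. The 1K1C arrays thus split into a low and a high pair, and the low pair was the pair low in smooth muscle markers.

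The Ccn3 difference from untreated WKY was 1.99 ± 0.76 (SE) in SHR (limma, adjusted p = 0.225), 1.95 ± 0.76 in 2K1C (adjusted p = 0.164) and 0.94 ± 0.76 in 1K1C (adjusted p = 0.690), none of which passed. Without the 3 low arrays, a choice made after the data were seen, it was called in SHR at 2.59 (limma, adjusted p = 0.016), beside 7.2% of all genes. SHR replicate 1, left out there, was the lowest SHR array for Ccn3, so leaving it out could only raise that difference. In 2K1C Ccn3 was then called at 1.95 (limma, adjusted p = 0.048), where 3.69% of all genes were called. The 3 low arrays belong to SHR and 1K1C, so the 2K1C difference itself was unchanged. What differed there was the estimate of spread that all groups share in the fit. Between untreated WKY and SHRSP, Ccn1, Ccn2 and Ccn3 were the members whose groups did not overlap, with the SHRSP group higher in each. In that comparison 6.36% of all genes were higher in SHRSP without overlap, and nothing is read from the count, for the reason given above.

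Ccn4 (Wisp1) is a WNT-responsive member, and Ccn5 (Wisp2) lacks the C-terminal module of the other CCN proteins. Both had higher means than untreated WKY in SHR, SHRSP, 2K1C and 1K1C. In 1K1C the differences were 0.34 ± 0.61 and 0.52 ± 0.99 (SE), and neither passed (limma, adjusted p = 0.857 and 0.865). Ccn4 ranged over -2.86 to -0.84 in untreated WKY, -1.62 to 0.34 in SHR, -1.10 to 0.18 in SHRSP, -1.56 to -0.38 in 2K1C and -3.44 to -0.08 in 1K1C. Each group overlapped untreated WKY. The largest mean difference of Ccn4 was 1.48 ± 0.61 in SHR (limma, adjusted p = 0.276). Without the 3 low arrays it was called at 1.95 (limma, adjusted p = 0.016), beside 7.2% of all genes. SHR replicate 1, left out there, was the lowest SHR array for Ccn4 too. Ccn5 ran from -7.01 to -3.74 in untreated WKY and from -3.82 to -1.79 in SHRSP. It was well above background on 17 of 20 arrays, with 1 dim array each in untreated WKY, SHR and 1K1C. Its differences from untreated WKY of 1.30 ± 0.99 in SHR and 1.62 ± 0.99 in 2K1C did not pass (limma, adjusted p = 0.603 and 0.328). With normexp background correction they were 0.59 and 0.67, and the difference in SHRSP was 0.83 in place of 2.15.

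Thbs4, a thrombospondin of the muscle and tendon matrix, had its highest mean in untreated WKY and its lowest in 1K1C. On the untreated WKY arrays it read 2.01, 2.04, 2.66 and 2.06, the tightest group. In 1K1C it read -0.43, -3.02, 0.35 and 2.04, so that 3 of 4 arrays lay below all untreated WKY arrays. The 1K1C arrays were also the most spread of any group for Thbs4 (SD 2.11, against 0.31 in untreated WKY). The SHR arrays read 0.05, 2.23, 2.40 and 1.99, and the SHRSP arrays 2.58, 1.72, 1.11 and 2.80. In 2K1C the level was 2.88, 1.45, 1.74 and 0.70. Outside 1K1C the differences from untreated WKY were small, at -0.52 in SHR, -0.50 in 2K1C and -0.14 in SHRSP. Those in SHR and SHRSP turned to 0.015 without SHR replicate 1 and to 0.17 without SHRSP replicate 3.

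Thbs4 was lower in 1K1C than in untreated WKY by a log2 difference of -2.46 ± 0.79 (SE; 95% interval -4.11 to -0.81), which did not pass in limma (adjusted p = 0.277). It was the 1 member with an unadjusted p under 0.05 in that comparison, beside 1493 of all genes. No gene of the array was called there (0.0%), so the 0 of 7 members called is the background. Leaving out 1 array, the difference ran from -3.23 to -1.54, and it was -1.0 without the 3 low arrays. Against 2K1C, on another slide, Thbs4 on the same 1K1C arrays differed by -1.96 ± 0.79 (limma, adjusted p = 0.160). That difference passed at -2.73 without 1K1C replicate 4 (limma, adjusted p = 0.025), where 11.5% of all genes were called. It was -0.50 without the 3 low arrays. Both values without the 3 low arrays rest on 1K1C replicates 3 and 4 alone.

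Thbs2, which like Thbs1 binds CD36, hardly varied between groups. Its group means lay between -1.29 in 1K1C and -0.94 in SHRSP, and its 4 SHRSP arrays between -1.05 and -0.79. The differences from untreated WKY were -0.17 ± 0.35 in SHR, -0.01 ± 0.35 in 2K1C and -0.30 ± 0.35 in 1K1C. The 95% intervals, -0.91 to 0.56 in SHR, -0.74 to 0.72 in 2K1C and -1.03 to 0.43 in 1K1C, leave room for changes of up to about 2-fold. The sign of these small differences turned under other scalings for 2K1C. The 3 lowest arrays, at -2.11, -1.93 and -1.89, were those lowest in smooth muscle markers.

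Thbs1, the first described thrombospondin and an activator of latent TGF-beta, was well above background on 5 of 20 arrays (2 of SHRSP, 1 each of SHR, 1K1C and untreated WKY, 0 of 2K1C). It did not pass the filter on dim probes and was not tested. Its readings lay between -6.38 and -4.72 with group means between -5.86 and -5.54, and no order is read from them. The probe has no position on rn4 in the array's annotation. The thrombospondin probes are shown because the members resemble each other in sequence and each value rests on a single 60-base probe. They are printed as the array files give them, and capitals in the last pair mark bases identical between Thbs4 and Comp in their best ungapped alignment.
Thbs1: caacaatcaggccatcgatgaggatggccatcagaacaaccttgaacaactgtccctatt
Thbs2: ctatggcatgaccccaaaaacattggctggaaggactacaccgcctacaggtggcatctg
Thbs4: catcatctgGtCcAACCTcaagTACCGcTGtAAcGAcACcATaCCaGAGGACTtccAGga
Comp: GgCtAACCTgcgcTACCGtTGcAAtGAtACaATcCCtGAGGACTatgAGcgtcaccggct
Thbs4 and Comp matched at 33 of 51 aligned bases (64.7%), with no shared run longer than 7. The pairs Thbs1 and Thbs2, Thbs1 and Thbs4, and Thbs2 and Thbs4 matched at 39.0%, 43.3% and 35.6%. Across the genome (rn4), the Thbs4 probe covers chr2:23011026-23011612, a span of more than 60 bases that its letters cross with a gap, and the Thbs2 probe chr1:53589151-53589210, both on the minus strand. The CCN probes lie at chr2:243824364-243824423 (Ccn1, minus strand), chr1:21327574-21327633 (Ccn2, minus), chr7:91169611-91169670 (Ccn3, plus), chr7:104291538-104291597 (Ccn4, plus) and chr3:154760083-154760142 (Ccn5, plus). No exon or UTR annotation of rn4 was used here.

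**Figure D2:**
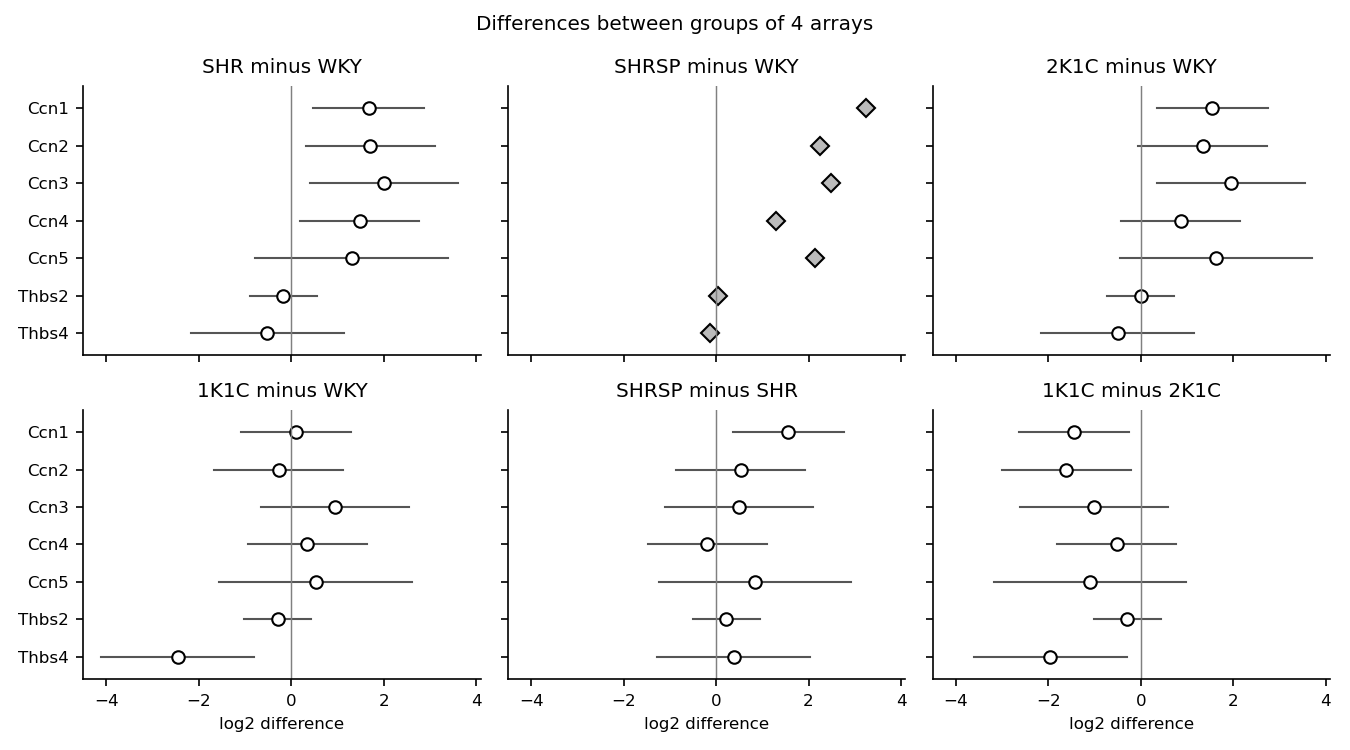
Log2 differences of the 7 tested genes in the 6 comparisons, with unadjusted 95% intervals from limma over 20 arrays. In the SHRSP minus WKY panel, grey diamonds give the differences without an interval, since they were known when the genes were chosen. The 5 CCN genes lie above 0 in the first 3 panels, and no open circle passed the adjusted threshold.

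Counted over the family, the 5 CCN genes had higher means than untreated WKY in SHR, SHRSP and 2K1C. With the thrombospondins, 5, 6 and 5 of 7 members were higher there, beside 52.6%, 50.5% and 53.5% of all genes. In 1K1C 4 of 7 were higher, beside 65.4% of all genes, and Ccn2, at -0.27, was the CCN gene that was lower. These comparisons share the untreated WKY arrays. The median log2 difference of the 7 members was 1.48 in SHR, 2.15 in SHRSP and 1.34 in 2K1C, against 0.02, 0.00 and 0.03 over all genes tested. In SHR none of the 7 was called, where 1.84% of all genes were called, and in 2K1C none was called, where 0.0122% were. At an unadjusted p under 0.05 the counts were 4 of 7 in SHR, beside 13.97% of all genes, and 2 of 7 in 2K1C, beside 22.02%, which is near the members' share. In 1K1C the members' median difference from untreated WKY was 0.10, as was that of all genes.

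1K1C against 2K1C compared the renovascular models with each other, on different slides. All 7 members had lower means in 1K1C, with a median of -1.10 against 0.01 over all genes. The largest differences were Thbs4, above, Ccn2 (-1.61 ± 0.66, limma, adjusted p = 0.173) and Ccn1 (-1.45 ± 0.57, adjusted p = 0.151). None of the members was called, and no gene at all was (0.0%), while 3 members and 3536 genes had an unadjusted p under 0.05. All 8 smooth muscle markers were also lower in 1K1C than in 2K1C (median -1.57), 0 of them called, and all 7 white adipocyte markers were higher (median 1.36). Without the 3 low arrays, which left 1K1C with replicates 3 and 4 alone, Ccn3, Ccn4, Ccn5 and Thbs2 turned to the opposite sign (0.43, 0.40, 0.33 and 0.33).

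The levels of the members ran with those of the smooth muscle markers and of other lists. After each group's mean was subtracted, the correlation with the mean of 8 smooth muscle markers over 20 arrays was 0.92 for Ccn2, 0.82 for Thbs4, 0.81 for Thbs2, 0.78 for Ccn4, 0.68 for Ccn5, 0.65 for Ccn1 and 0.64 for Ccn3. With other matricellular genes it was 0.93 for Ccn2, 0.87 for Ccn5, 0.86 for Thbs2 and Ccn4, and 0.83 for Ccn3. These lay above the smooth muscle values, while Thbs4 (0.79) and Ccn1 (0.63) lay below. With YAP and SRF target genes it ran from 0.50 (Ccn3) to 0.88 (Ccn2). With mesothelium markers it ran from -0.84 (Ccn4) to -0.51 (Thbs2), and with white adipocyte markers from -0.74 (Ccn3) to -0.39 (Thbs2). With macrophage markers it ran from -0.77 (Ccn2) to -0.43 (Thbs2), and with Schwann cell markers from 0.42 (Thbs2) to 0.73 (Ccn3). With endothelium markers it was 0.73 for Ccn1, above its value with smooth muscle markers, 0.58 for Ccn4, and between -0.04 (Ccn3) and 0.45 (Ccn2) for the others. Arrays of a group share a slide, and the values are descriptions. Of the 8 smooth muscle markers, 6 had higher means in SHR and in SHRSP than in untreated WKY and 8 in 2K1C (medians 0.56, 0.50 and 0.51), and 0 were called. In 1K1C all 8 were lower (median -0.87), also with 0 called.

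Other marker lists differed between the groups too. Of 6 fibroblast and adventitia markers, 4 had higher means than untreated WKY in SHR, 3 in SHRSP, 2 in 2K1C and 6 in 1K1C. In SHR and in SHRSP 1 was called, beside 1.84% and 2.39% of all genes. Their mean level lay from 2.39 to 2.81 in untreated WKY, 2.92 to 3.30 in SHR and 2.65 to 3.35 in SHRSP. It lay from 2.22 to 2.56 in 2K1C and 2.80 to 3.28 in 1K1C. SHR and untreated WKY thus did not overlap, nor did 1K1C and 2K1C. Of 8 endothelium markers, 7 had higher means than untreated WKY in SHR, SHRSP, 2K1C and 1K1C (medians 0.61, 0.47, 0.45 and 0.31), with 0 called. Their mean level lay from -0.41 to 0.69 in untreated WKY, 0.38 to 0.65 in SHR, 0.05 to 0.93 in SHRSP, -0.05 to 0.58 in 2K1C and -0.18 to 0.65 in 1K1C. All 7 pancreas and intestine markers tested had higher means in SHR (median 1.82) and SHRSP (1.00), 0 of them called, on list means from -6.02 to 1.25 in untreated WKY, -0.96 to 0.98 in SHR and -5.07 to 1.96 in SHRSP. All 7 neuron markers tested had lower means in SHR (median -2.83) and SHRSP (-2.56), with 2 called in each (Prph and Gap43). Their list mean lay from -1.21 to 4.61 in untreated WKY, -1.94 to -1.17 in SHR and -1.52 to -1.21 in SHRSP. The part of these lists in the members' differences was not tested.

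**Figure D3:**
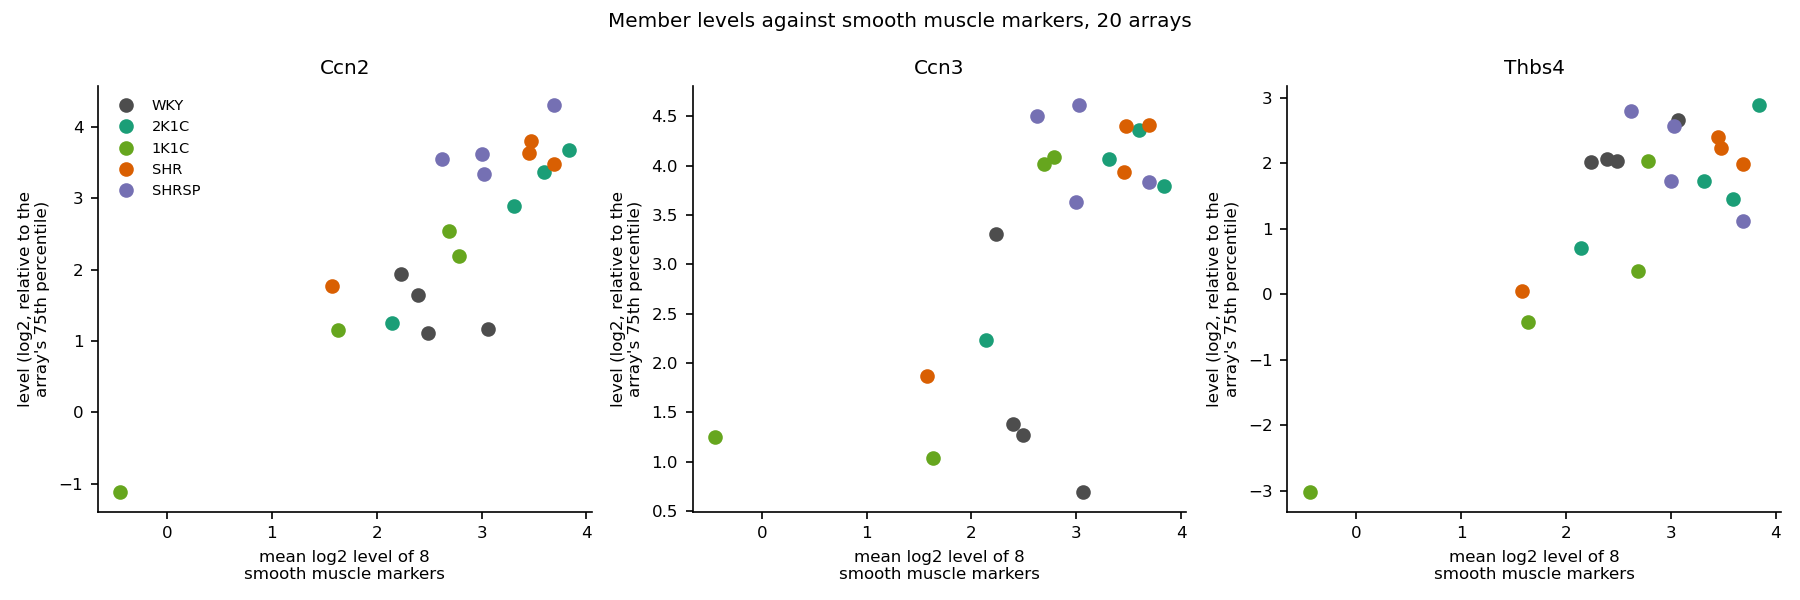
Level of Ccn2, Ccn3 and Thbs4 against the mean level of 8 smooth muscle markers (both log2, relative to the array's 75th percentile), 1 point per array. The array at the far left is 1K1C replicate 2 (-0.45). For Ccn2, the SHRSP points lie above the untreated WKY points, and for Thbs4 the untreated WKY points (2.01 to 2.66) lie near the upper edge.

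Subtracting the smooth muscle mean on each array, a step chosen with the values known, left Ccn2 higher in SHR by 1.21 with no overlap with untreated WKY. All 4 SHR arrays, the low one included, then lay between -0.21 and 0.33, and the untreated WKY arrays between -1.90 and -0.30. So treated, 0.268% of all genes were higher in SHR without overlap. Ccn1 differed between SHRSP and SHR by 1.53 with no overlap (0.25% of all genes higher), while the groups overlapped before the subtraction. As Ccn1 was known to be high on these SHRSP arrays, nothing is read from this value or its share. Between 1K1C and 2K1C the smooth muscle mean itself differed by -1.56, so its subtraction moved every gene upward by the same amount. All 7 members had lower means before it. Afterwards they stood at 0.11 for Ccn1, -0.05 for Ccn2, 0.54 for Ccn3, 1.03 for Ccn4, 0.45 for Ccn5, 1.26 for Thbs2 and -0.40 for Thbs4. No sign change is read from this shift. Ccn4 and Thbs2 did not overlap, nor did 9.92% of all genes in that direction.

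Thbs4 relative to smooth muscle had its highest mean in untreated WKY, at -0.22, -0.45, -0.40 and -0.33. The SHR arrays lay from -1.70 to -1.05, the 2K1C arrays from -2.15 to -0.95 and the 1K1C arrays from -2.58 to -0.75, each without overlap with untreated WKY. The differences were -1.03, -1.18 and -1.58, and the shares of all genes lower without overlap were 1.2%, 7.18% and 0.067%. The smooth muscle mean itself differed from untreated WKY by 0.50 in SHR, 0.68 in 2K1C and -0.88 in 1K1C. Its subtraction moved every gene by that amount the other way. Thbs2 in 2K1C then stood at -0.68 without overlap, beside the same 7.18% of all genes. Before the subtraction Thbs2 differed by -0.005 there, so this value is the shift itself and nothing is read from it. The SHRSP arrays, from -2.58 to 0.17 for Thbs4, overlapped untreated WKY. These differences carry no test.

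Immediate early genes, transcription factors and regulators induced within minutes of a stimulus, were followed because Ccn1 is induced in the same way. As the list was chosen with earlier results of these data known, its counts are descriptions. Of 16 tested, 16 had higher means in SHR than in untreated WKY (median 0.93), 15 in SHRSP (1.41), 14 in 2K1C (1.18) and 11 in 1K1C (0.10). Of all genes, 52.6%, 50.5%, 53.5% and 65.4% had higher means in these comparisons, so the count in 1K1C is near that of all genes. Few were called. Ier2, a nuclear regulator of the early response, read 1.95 to 2.98 in 2K1C against 0.81 to 1.48 in untreated WKY, without overlap. It rose by 1.34 ± 0.20 (limma, adjusted p = 0.032). The Ier2 call was lost with normexp background correction (adjusted p = 0.067), with only the 2 groups fitted (0.240), with the replicate block (0.054) and in 14 of the 20 fits that left out 1 array. Zfp36, which destabilises AU-rich mRNAs, was called higher in SHR and SHRSP (limma, adjusted p = 0.016 and 0.041). It was well above background on 1 of 4 arrays each of untreated WKY and 1K1C and on all arrays of the other groups, through which it entered the fit, and no size of its change is given. With normexp both calls were lost (limma, adjusted p = 0.186 and 0.444). Over the 8 other settings, normexp among them, the call was lost in 1 for SHR and in 5 for SHRSP. Of the 20 fits that left out 1 array, it was lost in 5 and 12.

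Ccn1 ran closer with the mean of the immediate early genes (r = 0.92 over 20 arrays, 0.91 after group means were subtracted) than with the smooth muscle markers (0.64 and 0.65). Over 20 arrays so did Ccn2 (0.88 against 0.87), Ccn3 (0.71 against 0.64) and Ccn4 (0.77 against 0.74), but not Ccn5, Thbs2 or Thbs4. After group means were subtracted, Ccn2 (0.75 against 0.92), Ccn3 (0.47 against 0.64) and Ccn4 (0.71 against 0.78) ran closer with smooth muscle. Relative to the immediate early mean, Ccn1 was 1.33 higher in SHRSP than in SHR with no overlap, as were 0.164% of all genes. The SHRSP arrays are those on which Ccn1 was known to be high, and nothing is read from this value.

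**Figure D4:**
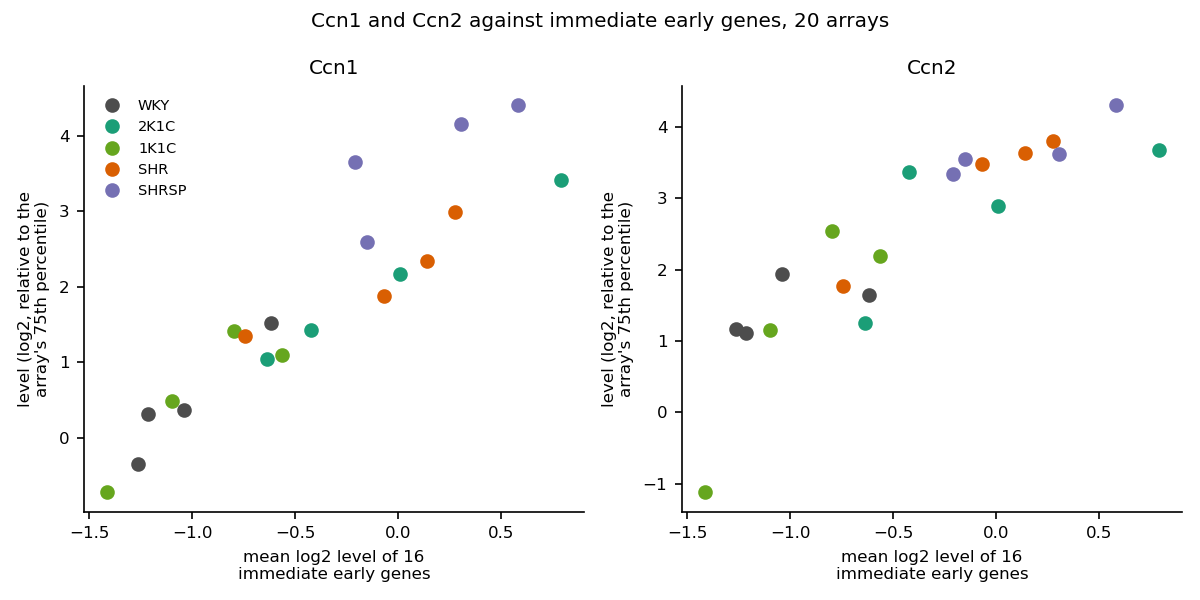
Level of Ccn1 and Ccn2 against the mean level of 16 immediate early genes (both log2, relative to the array's 75th percentile), 1 point per array. Untreated WKY and 1K1C points lie at the lower left. For Ccn1, the SHRSP points (2.59 to 4.41, at immediate early means of -0.21 to 0.58) lie above the other points with similar means.

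The genes whose level was most like a member's over the 20 arrays were named by the highest Pearson correlation, with the value after subtraction of group means in brackets. For Ccn1 they were Scube3, at 0.90 [0.86], Egr1, an immediate early zinc-finger factor, at 0.90 [0.84], and Adarb1, an adenosine deaminase acting on RNA, at 0.88 [0.85]. Scube3 was well above background on all 4 arrays in SHRSP alone, through which it entered the fit. It was so on 3 of 4 arrays each of SHR and 2K1C, 1 of 4 of 1K1C and 0 of 4 of untreated WKY. Nothing is read from its likeness to Ccn1. For Ccn2 they were Lmod1, the smooth muscle leiomodin, at 0.96 [0.96], the calcium-storage protein gene Casq1 at 0.96 [0.93], and Sparcl1, itself a matricellular protein, at 0.96 [0.95]. For Thbs4 they were Tenm2, a teneurin, at 0.95 [0.94], P2ry1, a purinergic receptor, at 0.94 [0.94], and Sorcs2 at 0.92 [0.91]. Within the family, the closest pair was Ccn4 with Ccn5 (0.88 [0.90]), and the loosest was Ccn1 with Thbs2 over the arrays (0.38 [0.51]) and Ccn1 with Ccn3 after group means were subtracted (0.68 [0.43]).

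Related genes showed few calls. Among the other family members, Thbs3 and Comp were tested and none was called; Comp, a pentameric thrombospondin of cartilage, differed most, by 1.31 between SHRSP (-3.12 to -2.01) and untreated WKY (-4.26 to -3.43). Ccn6 was not well above background on 19 of 20 arrays. Of 12 receptors tested (integrin subunits, Cd36, Cd47, Lrp1, Lrp6 and Sdc4), 0 were called in any of the 6 comparisons. Their median difference from untreated WKY was 0.25 in SHR, 0.18 in SHRSP, 0.26 in 2K1C and 0.08 in 1K1C. The largest was Sdc4, the proteoglycan syndecan-4, in 1K1C against 2K1C (-1.10 ± 0.34, limma, adjusted p = 0.083).

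Of 13 other matricellular genes, 9 had higher means than untreated WKY in each of SHR, SHRSP, 2K1C and 1K1C (medians 0.57, 0.48, 0.61 and 0.40), and 0 were called. In 1K1C, where 65.4% of all genes had higher means, that count is near that of all genes. The largest was Spp1, osteopontin, in 2K1C (2.77 ± 1.28, limma, adjusted p = 0.216), on levels from -0.64 to 1.53 against -3.49 to 0.31 in untreated WKY. Of 17 YAP and SRF target genes, 14 had higher means in SHR, 13 in SHRSP, 12 in 2K1C and 5 in 1K1C (medians 0.36, 0.21, 0.28 and -0.16), and 0 were called. Cnn1 and Tagln stand in both this list and the smooth muscle markers.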

How the data were processed

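Total RNA of 20 mesenteric artery samples was labelled with Cy3 and hybridised to 1-colour Agilent arrays. The deposited signal intensity of each spot, linear and background-subtracted, came from Agilent Feature Extraction 10.7.3.1, per the file headers and the submitters' processing notes. The deposited value table held the same signal intensity (largest relative difference 0), linear and uncentred. It was not scaled between arrays.

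From these, log2 signal minus the array's 75th percentile was computed, without the 4259 control spots and without 301 to 684 outlier spots per array. Spots of a probe were averaged. A probe entered the fit if some group had all 4 of its arrays well above background; the brightest such probe stood for its gene, giving 16424 genes. Symbols came from accessions in a RefSeq table (18355 of 30367 probes matched), otherwise from the files. Limma 3.58.1 (R 4.3.3) was fitted to all 5 groups, two-sided, with Benjamini-Hochberg adjustment over all genes at 0.05, and was tested on simulated data. The number of arrays limits precision. Replicate numbers were not treated as pairs: in no comparison was every same-number correlation above 0.1. That cannot exclude pairing, as the correlation reached 0.57 for replicate 2 of 1K1C and untreated WKY. The replicate number was also the array's column on its slide.

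The members and lists were chosen with earlier results of these data known. Named genes were all 8 members; in each related list up to 3 called genes with the largest difference per comparison, or else the single gene with the largest; and the 3 genes most correlated with Ccn1, Ccn2 and Thbs4 (Thbs1 was not tested). One gene this rule picks is not reported here. Cell type marker lists were summarised as mean levels. Alternatives were other normalizations, filters, probe rules, samples in the fit, a replicate block and leaving out arrays.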

Additional observations from a re-analysis of the deposited data

Results flagged for a closer look

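In SHR, Ccn2 stood at 1.77 on replicate 1 against 3.48 to 3.80 on the other 3 arrays, and Ccn4 at -1.62 against 0.12 to 0.34. The gap was 0.84 and 0.88 of the group's range, above the critical 0.829 for 4 samples. The smooth muscle marker mean on that array was 1.58, against 3.45 to 3.69 on the other SHR arrays. Its part in these values was not tested. In untreated WKY, Thbs4 stood at 2.66 on replicate 3 against 2.01 to 2.06, a gap of 0.92 of the range. These 3 flags came from 40 groups tested, and chance flags about 1 in 20.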

How the results depend on the processing

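Quantile normalization, normexp background correction, array median scaling, no filter on dim probes, other probe rules and the replicate block changed no call of a member. The only member called before these changes was Ccn1 in SHRSP against untreated WKY, a difference known when the genes were chosen. Nothing is read from member calls in that comparison, here or below. The replicate block, for numbers not treated as pairs, left 1 member called in SHRSP against untreated WKY and 0 in each other comparison. With it 285, 363, 2, 0, 51 and 0 genes were called, beside 303, 393, 2, 0, 59 and 0 without it. The order is SHR, SHRSP, 2K1C, 1K1C (each minus untreated WKY), SHRSP minus SHR and 1K1C minus 2K1C. With only the 2 groups of a comparison fitted, Ccn1 and Ccn2, 2 members, were called in SHRSP against untreated WKY, and 102, 161 and 0 genes in SHR, SHRSP and 2K1C against untreated WKY and 39 in SHRSP against SHR. Quantile normalization called 8 genes in 2K1C, and normexp 184 in SHR, 0 in 2K1C and 35 in SHRSP against SHR. Array median scaling moved the median of all genes in SHR from 0.02 to 0.12 and the split of higher and lower calls there from 137 and 166 to 221 and 118. Quantile, normexp and median scaling turned the near-zero Thbs2 difference in 2K1C to 0.016, 0.0055 and 0.0029.

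Without the 3 arrays low in smooth muscle markers, 3 members were called in SHR (Ccn2, Ccn3 and Ccn4), 3 in SHRSP (Ccn1, Ccn2 and Ccn3) and 1 in 2K1C (Ccn3), among 1183, 673 and 606 genes. SHR replicate 1, left out here, was the lowest SHR array for each of the members called in SHR. Of 1K1C, replicates 3 and 4 alone were left. Leaving the 3 arrays out did not change the differences of SHRSP and 2K1C from untreated WKY, only the estimate of spread shared by all groups. Signs then turned for Thbs2 (0.14) and Thbs4 (0.015) in SHR, Ccn2 (0.90) and Thbs2 (0.33) in 1K1C against untreated WKY, Ccn3 (-0.11), Thbs2 (-0.091) and Thbs4 (-0.15) in SHRSP against SHR, and Ccn3 (0.43), Ccn4 (0.40), Ccn5 (0.33) and Thbs2 (0.33) in 1K1C against 2K1C. The cause was not tested.

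Leaving out 1 array at a time, members called ran from 1 to 2 in SHRSP against untreated WKY (Ccn2 was added without 1K1C replicate 2) and from 0 to 1 in 1K1C against 2K1C (Thbs4, without 1K1C replicate 4). Genes called ran from 124 to 669 in SHR, 172 to 911 in SHRSP, 0 to 870 in 2K1C and 0 to 205 in 1K1C, all against untreated WKY, with the highest count in each without untreated WKY replicate 4 and the lowest in SHR and SHRSP without untreated WKY replicate 3. They ran from 38 to 69 in SHRSP against SHR and from 0 to 1896 in 1K1C against 2K1C, the latter without 1K1C replicate 4. Uncalled differences that changed sign ran, in 1K1C against untreated WKY, from -0.18 to 0.53 for Ccn1, -0.72 to 0.50 for Ccn2, -0.080 to 1.04 for Ccn4 and -0.32 to 1.49 for Ccn5. For Ccn4 in 1K1C against 2K1C they ran from -0.94 to 0.18. In SHRSP against SHR they ran from -0.11 to 0.74 for Ccn3, -0.66 to 0.047 for Ccn4, -0.091 to 0.42 for Thbs2 and -0.15 to 0.70 for Thbs4. For Thbs2 they ran from -0.37 to 0.14 in SHR, -0.082 to 0.15 in SHRSP and -0.14 to 0.24 in 2K1C, and for Thbs4 from -0.77 to 0.015 in SHR and -0.39 to 0.17 in SHRSP. Dim signal limits Thbs1 and Ccn5.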
